A study of Homo sapiens with 5 samples.

Results

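The cytosolic heat shock genes studied here are 10 of the 16677 genes counted by messenger RNA sequencing in HEK293, a long-established line derived from human embryonic kidney. They were taken by name. They are the heat-inducible genes HSPA1A, HSPA1B, DNAJB1, HSPH1, HSPB1, HSP90AA1 and BAG3, and the constitutively expressed genes HSPA8, HSP90AB1 and DNAJA1. All 10 were in the count table, and all 10 passed the filter on low counts. HSPA1A was selected on its fold change and adjusted p in an earlier fit to these libraries that left out variant 3, and the others were chosen by family with that result known. The differences of all 10 are therefore given as a description, without a test.

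The 5 libraries were 2 from wild-type HEK293 cells (wild type 1 and wild type 2) and 3 from cells of the same line that carry rs11607019, a T-to-C substitution located by the series in the gene SIRT3 (variant 1, variant 2 and variant 3). All were cultured under basal conditions, with no heat or other stress named in the labels. Nothing in the labels tells clones from repeat cultures or repeat preparations within a group, so p-values measure only the spread between these libraries, which may be technical. No batch is named.

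Cytosolic chaperones hold newly made and damaged proteins until they fold. HSP70 proteins such as those of HSPA8, HSPA1A and HSPA1B bind exposed stretches of client proteins in a cycle driven by ATP, which J-domain proteins (DNAJA1, DNAJB1) start and nucleotide exchange factors (HSPH1, BAG3) end. HSP90 proteins take over later folding steps of kinases and receptors. The transcription factor HSF1 is held inactive in unstressed cells, and on heat or other damage it binds heat shock elements, inverted repeats of GAA, in the promoters of the inducible genes. HSPA8 and HSP90AB1 are transcribed at a high level without stress, and many tumour and transformed lines also hold some HSPA1A messenger RNA without stress.

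Library totals lay between 17122569 and 17596084 counts, so depth was similar in all 5. Levels are in CPM, the count scaled to a common library size with TMM factors (trimmed mean of M-values), which lay between 0.983 and 1.01. Over all counts, wild type 2 and variant 3 were the most alike of the 10 pairs of libraries, with a chi-square per degree of freedom of 16.98 against 24.97 between the wild-type libraries and 23.8 to 33.7 between variant libraries. The other pairs of a wild-type with a variant library stood at 27.0 to 38.1. Library likeness thus followed the groups only in part, and its part in the differences below was not tested. Of 8 markers listed for HEK293, 5 were in the table (PAX2, LHX1, KRT8, KRT18 and VIM), with a summed level of 640.03 to 908 CPM in wild type and 752 to 1135 CPM in the variant. CDH2, NEFM and NEFL were not in the table. Marker levels were scaled by the library total alone, without the TMM factors. Of 12 markers of fibroblasts, blood and hepatocytes, COL1A1 (28.2 to 46.4 CPM) and CD74 (0.966 to 1.65 CPM) were measured, and both overlapped between groups.

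HSPA1A and HSPA1B encode the same inducible HSP70 protein and lie next to each other on chromosome 6. GENCODE release 29, on GRCh38, places HSPA1A (ENSG00000204389) at chr6:31815464-31817946 and HSPA1B (ENSG00000204388) at chr6:31827735-31830255, both on the forward strand. Short reads cannot always tell them apart. Windows of 50 bases, a length set for this search and not taken from the libraries, were compared between transcripts. Of the 2434 windows of 50 bases in the longest HSPA1A transcript, 72.6% occur unchanged in HSPA1B transcripts, and 27.4% occur in no transcript of another gene. For HSPA1B the unique share is 26.5%. The unique windows lie mainly at both ends, in bases 1 to 336 and 2104 to 2483 of the HSPA1A transcript and in bases 1 to 259 and 2027 to 2521 of the HSPA1B transcript. The settings by which reads with several matches were counted or dropped are not given in the sources used here.

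Their promoters carry the same core heat shock element, which is shown because these are the genes with the largest differences. In the RefSeq promoter table for GRCh38.p14 the 300 bases around the starts of HSPA1A and HSPA1B are 92.03% identical. The stretches below are on the forward strand, at chr6:31815412-31815463 and chr6:31827608-31827665, and the capitals mark the motif GAANNTTC.
HSPA1A: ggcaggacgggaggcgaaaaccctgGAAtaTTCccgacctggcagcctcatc
HSPA1B: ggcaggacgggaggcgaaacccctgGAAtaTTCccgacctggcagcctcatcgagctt
The motif begins 106 bases before the RefSeq start of HSPA1A and 105 bases before that of HSPA1B. Other forms of the element were not searched for, apart from the inverse TTCNNGAA and runs of 3 units, given with the other members.

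HSPA1A was 5.09 times lower in the variant libraries than in wild type, by group means. It stood at 376 CPM in wild type 1 and 701 CPM in wild type 2, and at 63.1, 61.8 and 193 CPM in variant libraries 1 to 3. These levels rest on 6443 and 12290 counts in wild type and on 1092, 1076 and 3411 counts in the variant. Each variant library was thus below both wild-type libraries, variant 1 and variant 2 were almost alike, and variant 3 lay between them and wild type 1. The group means were 538 ± 230.1 CPM (SD, n = 2) and 106 ± 75.2 CPM (SD, n = 3). The fitted log2 fold change, variant over wild type here and throughout, was −2.35 (SE 0.58, 95% confidence interval −3.79 to −0.90). Leaving out variant 3, the one closest to wild type, gave −3.11, and leaving out wild type 2, the highest, gave −1.83. In bulk libraries fewer cells with this message and less of it in each cell cannot be told apart.

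HSPA1B was lower in the variant too, by a smaller factor. It stood at 372 and 549 CPM in wild-type libraries 1 and 2, and at 174, 179 and 329 CPM in variant libraries 1 to 3. The group means were 460.5 ± 126 CPM (SD, n = 2) and 227 ± 88.1 CPM (SD, n = 3), a 2.03-fold difference. The groups did not overlap, but variant 3 was closer to wild type 1 than to the other variant libraries. The log2 fold change was −1.02 (SE 0.29, 95% confidence interval −1.67 to −0.37). Leaving out wild type 2 gave −0.71, and leaving out variant 3 gave −1.38.

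The order of the libraries was nearly the same for both genes, with wild type 2 highest, then wild type 1 and variant 3, then variant 1 and variant 2 at close to equal levels. Their balance differed as well as their sum. HSPA1A held 50.3% of the joint HSPA1A and HSPA1B counts in wild type 1 (exact binomial 95% interval 49.4 to 51.1) and 56.1% in wild type 2 (55.4 to 56.7). It held 26.6% in variant 1 (25.2 to 27.97), 25.7% in variant 2 (24.4 to 27.1) and 36.9% in variant 3 (35.95 to 37.9). Such intervals reflect only counting, since reads without molecular identifiers are not independent molecules. The means were 53.2% ± 4.10 (SD, n = 2) and 29.7% ± 6.25 (SD, n = 3), so HSPA1A had fewer counts than HSPA1B in every variant library and more in both wild-type libraries. Because the genes share most of their windows, the split between them depends on how shared reads were treated. The joint count does not depend on the split, though it too would miss shared reads that were dropped. The joint count was 12818 and 21923 in wild-type libraries 1 and 2, and 4107, 4187 and 9234 in variant libraries 1 to 3. As a joint level this was 747 and 1250.3 CPM against 237, 240.4 and 522 CPM, a 2.998-fold difference of the means. With the counts of both genes added to a single row before the fit, the log2 fold change was −1.58.

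**Figure D1:**
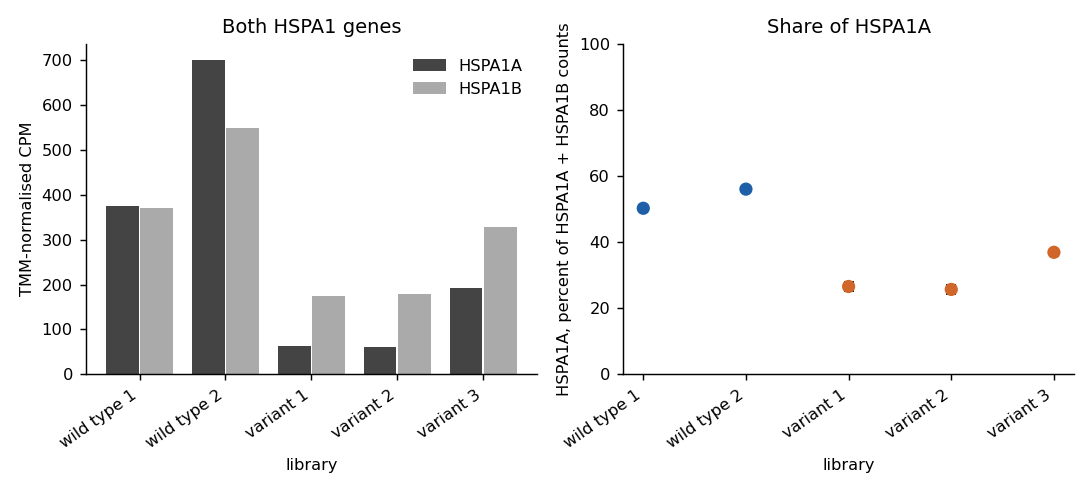
HSPA1A and HSPA1B in each library. The left panel shows TMM-normalised CPM as bars from 0, and the right panel shows HSPA1A as a percent of the joint counts, with exact binomial 95% intervals that are about as small as the points. Both genes are lower in the 3 variant libraries, and the HSPA1A share is 50.3% and 56.1% in wild type against 25.7% to 36.9% in the variant.

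Among the other genes of the same stretch of chromosome 6, HSPA1L alone had a value below 0. Among the 13 other protein-coding genes tested within 120 kilobases, by the distance of their lowest coordinates from that of HSPA1A, the median log2 fold change was 0.34, and none was lower in all variant libraries than in both wild-type libraries. Of these 13 genes, 8 were higher in every variant library than in both wild-type libraries, where 11.8% of all tested genes were. SNHG32, a host gene of small nucleolar RNAs that follows HSPA1B and is annotated as protein-coding in GENCODE release 29, had 24.6 and 18.7 CPM in wild type and 30.2, 34.3 and 34.8 CPM in the variant (log2 fold change 0.61, SE 0.20, adjusted p 0.616 in edgeR's test). LSM2, an RNA-processing gene 8480 bases before HSPA1A, had a log2 fold change of 0.20 (SE 0.15, adjusted p 0.751). HSPA1L, a testis-enriched HSP70 gene read in the other direction from 399 bases before HSPA1A, was the lowest of the 13. It had 6.35 and 11.3 CPM in wild type and 3.76, 5.74 and 9.55 CPM in the variant, with groups that overlapped (log2 fold change −0.48, SE 0.40, adjusted p 0.777 in edgeR's test). Its libraries had the same order as those of HSPA1B, with variant 1 lowest and wild type 2 highest, except that variant 3 lay above wild type 1.

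**Figure D2:**
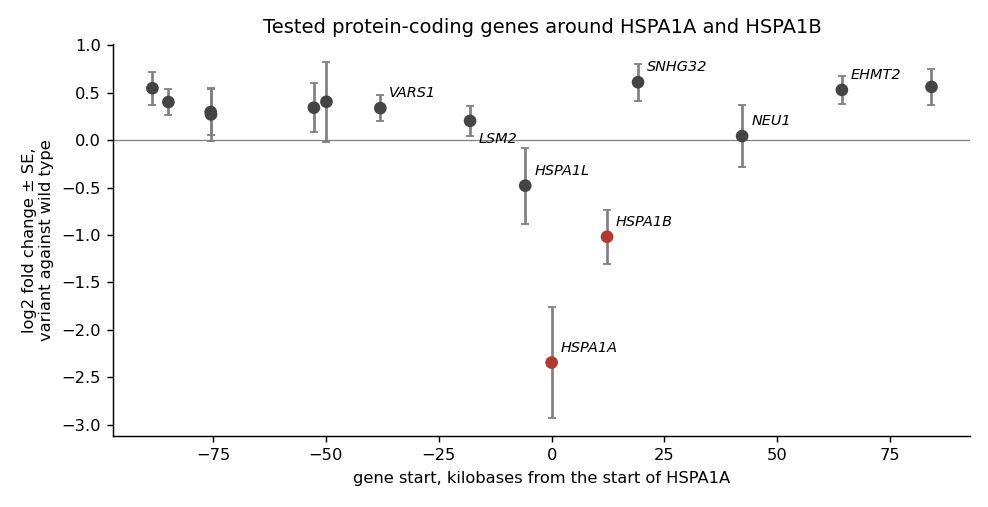
Log2 fold change, variant over wild type, for the 15 tested protein-coding genes around HSPA1A, by position relative to HSPA1A in kilobases; bars are SE. HSPA1A and HSPA1B (red) stand at −2.35 and −1.02 and HSPA1L at −0.48, while the other genes lie between 0.04 and 0.61.

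The remaining inducible genes showed no drop of the kind seen in HSPA1A. DNAJB1, the heat-inducible J-domain partner of HSP70, had 155 and 175 CPM in wild-type libraries 1 and 2, and 143, 161 and 184 CPM in variant libraries 1 to 3. The groups overlapped fully, with means of 165 ± 14.1 CPM (SD, n = 2) and 163 ± 20.7 CPM (SD, n = 3). The fitted log2 fold change was −0.02 (SE 0.16, 95% confidence interval −0.37 to 0.34). HSPH1, an HSP110 protein that releases nucleotide from HSP70, had 137 and 148 CPM in wild type against 126, 129.97 and 127 CPM in the variant. Its groups did not overlap, yet the means of 142 ± 7.63 CPM (SD, n = 2) and 128 ± 2.10 CPM (SD, n = 3) were close, and the log2 fold change was −0.16 (SE 0.14, 95% confidence interval −0.47 to 0.16).

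BAG3, a co-chaperone that links HSP70 to small heat shock proteins and selective autophagy, had 73.3 and 90.8 CPM in wild type and 50.7, 77.5 and 81.05 CPM in the variant. Only variant 1 lay below both wild-type libraries, and the log2 fold change was −0.23 (SE 0.22, 95% confidence interval −0.73 to 0.26). It was −0.05 without variant 1. HSPB1, the small heat shock protein HSP27, had 42.6 and 73.9 CPM in wild type and 45.02, 65.1 and 69.6 CPM in the variant. Wild type 1 and variant 1 formed the low pair, so the spread within each group was larger than the distance between the means of 58.2 ± 22.1 CPM (SD, n = 2) and 59.9 ± 13.1 CPM (SD, n = 3). The fitted log2 fold change was 0.04 (SE 0.26), and its sign depended on a single library, with 0.49 when wild type 2 was left out and −0.30 when wild type 1 was.

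HSP90AA1, the more inducible of the cytosolic HSP90 genes, had 1287 and 1296 CPM in wild-type libraries 1 and 2 and 1544, 1400.35 and 1111 CPM in variant libraries 1 to 3. Variant 1 and variant 2 were above wild type and variant 3 was below it. The means were 1291 ± 6.80 CPM (SD, n = 2) and 1352 ± 220.3 CPM (SD, n = 3), with a log2 fold change of 0.07 (SE 0.16, 95% confidence interval −0.28 to 0.42). HSP90AA1 lies on chromosome 14, whose 368 genes with a mean log2 CPM above 3 had a median log2 fold change of 0.31. The chromosome medians relative to the mean of the 5 libraries were −0.17 and −0.17 in wild type and 0.30, 0.28 and −0.25 in variant libraries 1 to 3. HSP90AA1 deviated by −0.04 and −0.03 in wild type and by 0.23, 0.09 and −0.25 in the variant. Variant 1 and variant 2 were thus high and variant 3 low in both, with the wild-type libraries almost level between them.

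The 3 constitutive genes were slightly higher in the variant, with groups that overlapped in each. HSPA8, the constitutive HSP70 gene HSC70, had 861 and 939 CPM in wild-type libraries 1 and 2, and 994, 902 and 1057 CPM in variant libraries 1 to 3. Its means were 900.1 ± 55.0 CPM (SD, n = 2) and 984 ± 78.0 CPM (SD, n = 3), with a log2 fold change of 0.13 (SE 0.13, 95% confidence interval −0.17 to 0.43). HSP90AB1, the constitutive cytosolic HSP90, had 1445 and 1652 CPM in wild type and 1859, 1645 and 2036 CPM in the variant. Variant 2 lay just under wild type 2, and the log2 fold change was 0.25 (SE 0.14, 95% confidence interval −0.06 to 0.57).

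DNAJA1, a J-domain partner of HSPA8, had 254 and 281 CPM in wild-type libraries 1 and 2 and 368, 312 and 267 CPM in variant libraries 1 to 3. Its log2 fold change was 0.24 (SE 0.16, 95% confidence interval −0.13 to 0.60), and 0.11 without variant 1, its highest library. It lies on chromosome 9, where the median log2 fold change of 433 genes was 0.36, so DNAJA1 stood 0.12 below its own chromosome on the log2 scale. The chromosome medians relative to the mean of the 5 libraries were −0.208 and −0.189 in wild type and −0.055, 0.279 and 0.216 in variant libraries 1 to 3. DNAJA1 deviated by −0.208 and −0.063 in wild type and by 0.323, 0.086 and −0.138 in the variant. Among the variant libraries, DNAJA1 was thus highest where its chromosome was lowest. HSP90AB1 is on chromosome 6 with HSPA1A and HSPA1B, where the median was 0.13. Set against that median, HSP90AB1 stood at 0.13, HSPA1B at −1.15 and HSPA1A at −2.47.

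**Figure D3:**
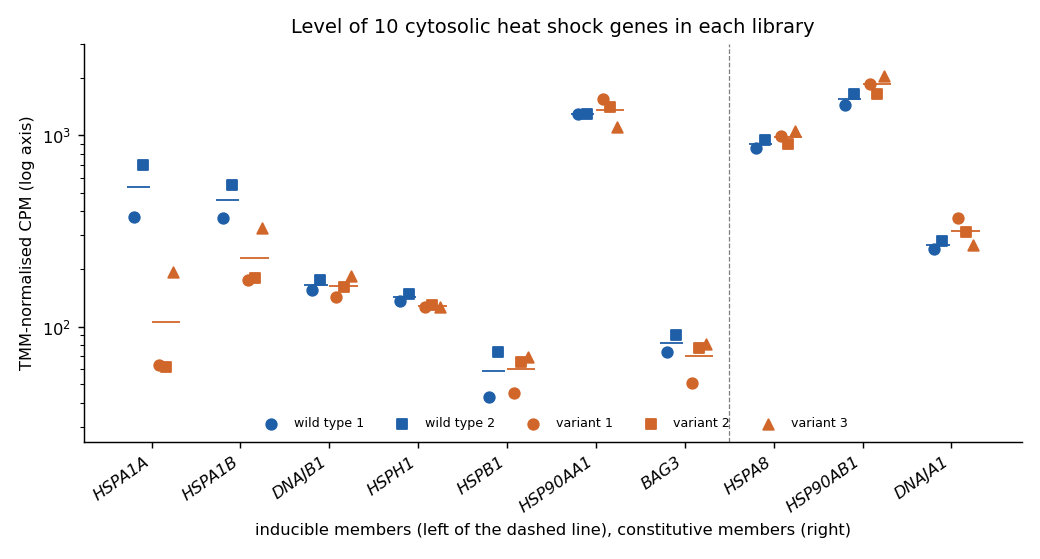
TMM-normalised CPM (log axis) of the 10 genes in each of the 5 libraries; short lines are group means, blue for wild type and orange for the variant. HSPA1A spans 61.8 to 701 CPM, while HSPA8 spans 861 to 1057 CPM and the groups of the 8 genes other than HSPA1A and HSPA1B lie close together.

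**Figure D4:**
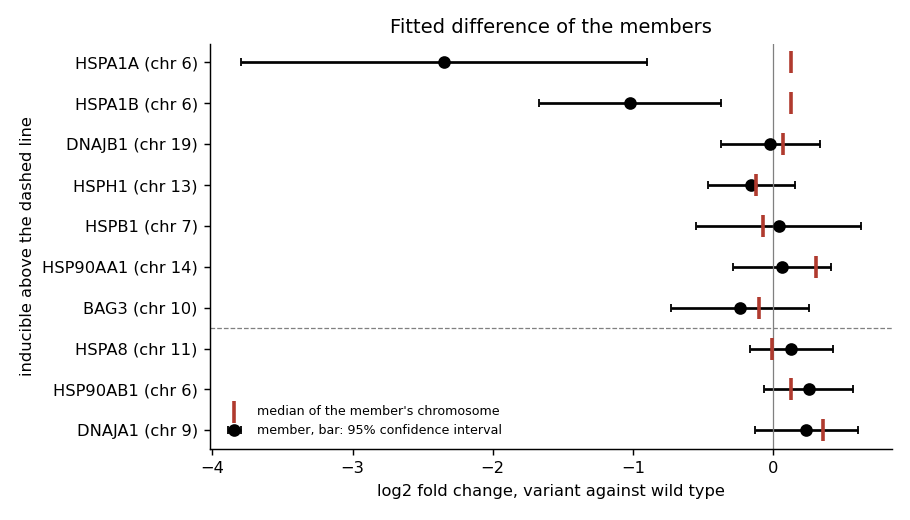
Log2 fold change, variant over wild type, for each gene with its 95% confidence interval; red ticks mark the median of the gene's chromosome. HSPA1A at −2.35 and HSPA1B at −1.02 are lowest, and the other 8 genes lie between −0.23 and 0.25; the intervals show precision and are no test, since these genes were chosen with this contrast known.

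In edgeR's quasi-likelihood test over all 16310 tested genes, 0 of the 10 members had an adjusted p under 0.05, where 0% of all tested genes did. In the same test 2 members, HSPA1A and HSPA1B, had an unadjusted p under 0.05, where 7.62% of all tested genes did. The Wald test of DESeq2 also called 0 of the 10, where it called 0.213% of the genes to which it gave an adjusted p. Of the 10 members, 3 were lower in every variant library than in both wild-type libraries (HSPA1A, HSPA1B and HSPH1), where 13.0% of all tested genes were. None of the 10 was higher in this sense, where 11.8% of all tested genes were. HSPA1A and HSPA1B had a log2 fold change at or below −1, where 0.723% of all tested genes did. HSPA1A had the second lowest log2 fold change of the tested genes, and among the 2514 genes with a mean above 100 CPM HSPA1A ranked 1 and HSPA1B ranked 2 from the low end. Since the choice of members used this contrast, nothing is read from these counts and ranks.

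By fitted fold change the 3 constitutive genes, at 0.13 to 0.25, all lay above the 7 inducible genes, of which HSP90AA1 was highest at 0.07. The gap between HSP90AA1 and HSPA8 was smaller than the SE of either, and with wild type 2 left out HSPB1, at 0.49, lay above all 3 constitutive genes. Set against the medians of their chromosomes, the 3 constitutive genes did not all lie above the inducible genes. DNAJA1 then stood at −0.12, below HSPB1 (0.11), HSPH1 (−0.03) and DNAJB1 (−0.09) and above the other inducible genes. HSPA8 (0.14) and HSP90AB1 (0.13) still lay above all 7. This order did not hold in every setting. With limma-voom HSPB1 (0.144) lay above HSP90AB1 (0.125), and with wild type 2 left out HSPB1 (0.55) lay above all 3 constitutive genes. DNAJA1 stood above 0 with the replicate block (0.02) and with the correction for GC content and length (0.05). The 7 inducible genes had a median log2 fold change of −0.16, of which HSPA1A and HSPA1B made up the low end, and the 3 constitutive genes had a median of 0.24. The median over all tested genes was 0.00. Without HSPA1A and HSPA1B the other 5 inducible genes had a median of −0.02 and a range from −0.23 for BAG3 to 0.07 for HSP90AA1. In each library the median deviation of these 5 genes from the mean of the 5 libraries was −0.04 and 0.15 in wild-type libraries 1 and 2, and −0.19, 0.08 and 0.14 in variant libraries 1 to 3. By this median wild type 2 and variant 3 were high and variant 1 was low, but not every one of the 5 genes followed it. HSP90AA1 deviated by 0.23 in variant 1 and by −0.25 in variant 3, and HSPH1 by −0.07 in variant 3. HSPA1A deviated by 1.05 and 1.95 in wild type and by −1.52, −1.56 and 0.08 in the variant. Variant 2 was therefore as low as variant 1 in HSPA1A and not low in the median of the other 5 inducible genes.

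Profiles over the 5 libraries were compared by the root mean square difference of log2 deviations. HSPA8 and HSP90AB1 were the most alike members, at 0.07. HSP90AA1 and DNAJA1, one counted here as inducible and the other as constitutive, were next at 0.10. DNAJB1 was 0.13 from both HSPH1 and HSPA8. HSPA1A was 0.76 from HSPA1B and 1.22 from BAG3, its nearest members, and 1.53 from DNAJA1, the farthest. The measure depends on the size of the deviations, so HSPA1B, with smaller deviations than HSPA1A, was at 0.48 from BAG3. Among all 16310 tested genes HSPA1B still ranked 15 in closeness to HSPA1A.

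Among all tested genes, PRAME, a cancer-testis antigen, had the profile closest to HSPA1A, with a root mean square difference of 0.47 over the 5 libraries. It had 18.4 and 47.0 CPM in wild type and 8.32, 4.31 and 15.9 CPM in the variant. CREB3L1, PLA2G4A, IFI35 and SYT1 followed, at 0.59 to 0.61, all with a mean under 10 CPM. The 5 closest to HSPA8 were FIS1, MXD1, RBM10, SMAD3 and RARA, at 0.02 to 0.03, which is a small distance because HSPA8 itself varied little.

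The weight of the HSPA1 pair within cytosolic chaperone messages differed more than the total. The 10 genes summed to 5002 and 5906 CPM in wild-type libraries 1 and 2, and to 5366, 4934 and 5454 CPM in variant libraries 1 to 3, with groups that overlapped. HSPA1A and HSPA1B made up 14.9% and 21.2% of that sum in wild type and 4.42%, 4.87% and 9.56% in the variant. The other 8 genes together held 4255 and 4655 CPM in wild type and 5129, 4693 and 4933 CPM in the variant. Per HSPA8 count there were 0.868 and 1.33 counts of the joint pair in wild type and 0.239, 0.267 and 0.493 in the variant. These are ratios of counts, not adjusted for the longer exons of HSPA8, and every variant library was below both wild-type libraries.

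Between genes, levels were compared as CPM per kilobase of the exons in GENCODE release 29, averaged over the 5 libraries. HSP90AB1 was highest at 579.7, followed by HSP90AA1 at 253 and HSPA8 at 196. HSPA1B at 127, HSPA1A at 112 and DNAJA1 at 109 came next, then DNAJB1 at 44.5, HSPB1 at 36.2, BAG3 at 27.2 and HSPH1 at 15.9. The place of HSPA1A in that order differed between the groups. At 217 CPM per kilobase in wild type its libraries, from 151 to 282, spanned those of HSPA8 (mean 186), and at 42.6 in the variant its libraries, from 24.9 to 77.6, spanned those of DNAJB1 (mean 44.3). Its order with DNAJA1 turned between the groups. In wild type DNAJA1, at 93.2 and 103 CPM per kilobase, was below both libraries of HSPA1A and of HSPA1B (147 and 218 for the latter), and in the variant DNAJA1, at 97.8 to 135, was above all 3 libraries of HSPA1A. Exons of all transcripts count toward a length, so genes with long alternative transcripts such as HSPH1 appear lower, and for HSPA1A and HSPA1B shared reads bear on the level.

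Heat shock element motifs were found in the promoters of genes that did and did not differ. The letters GAANNTTC or TTCNNGAA, which read the same on both strands and can overlap, occurred within 250 bases before to 50 bases after a RefSeq start in 8 of the 10 genes, against 16.2% of 27305 genes in the table. Runs of 3 units (GAANNTTC followed by NNGAA, or TTCNNGAA followed by NNTTC, each being the other read on the opposite strand) occurred in 4 of the 10, against 0.608% of genes. These 4 were HSP90AA1, HSPA8, HSP90AB1 and DNAJA1. BAG3 and HSPH1 had no match of these letters in this window. Genes with several listed starts had more windows to match in. For comparison with the HSPA1 pair, the sites of HSP90AA1 (chr14:102087105-102087132, reverse strand), HSPA8 (chr11:123062179-123062191, reverse strand), HSP90AB1 (chr6:44247753-44247865, forward strand) and DNAJB1 (chr19:14518421-14518499, reverse strand) are printed 5′ to 3′ with the GAA and TTC units of the motifs in capitals.
HSP90AA1: TTCcgGAAggTTCgggaggcTTCtgGAA
HSPA8: TTCtgGAAggTTC
HSP90AB1: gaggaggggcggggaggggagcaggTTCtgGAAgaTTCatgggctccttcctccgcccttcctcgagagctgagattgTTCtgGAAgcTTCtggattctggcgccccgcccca
DNAJB1: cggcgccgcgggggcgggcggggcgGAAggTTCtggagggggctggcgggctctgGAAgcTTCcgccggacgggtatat
The members with a run of 3 units had log2 fold changes of 0.07 to 0.25, and HSPA1A and HSPA1B, with a single GAANNTTC match each, had −2.35 and −1.02. HSPB1, also with a single GAANNTTC match, had 0.04, and DNAJB1, with GAANNTTC matches but no run, had −0.02. BAG3 and HSPH1, without a match, had −0.23 and −0.16. These matches describe letters in the reference and say nothing about binding in these cells.

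The wider chaperone network was described from 7 lists written by function. Of 77 listed genes other than the members, 68 were in the table, all 68 were tested, and 0 passed an adjusted p of 0.05 with edgeR, where the smallest was 0.616, or with DESeq2. Before adjustment 4 genes were higher and 7 lower at a p under 0.05, against 670 higher and 573 lower (7.62% together) among all 16310 tested genes. At 21 of the 68 genes (30.9%) the groups were apart, with every variant library above or below both wild-type libraries, where 24.8% of all tested genes were apart in this way. Of the 68 genes, 15 were apart on the lower side and 6 on the higher side, where 13.0% and 11.8% of all tested genes were.

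The groups overlapped for 4 of the 5 heat shock factors and their regulators, where they were apart at 24.8% of all tested genes. The exception was HSF2BP, which encodes a protein that binds HSF2, at 1.63 and 1.65 CPM in wild type and 2.37, 1.84 and 1.92 CPM in the variant (log2 fold change 0.31, SE 0.34, adjusted p 0.829 in edgeR's test). These levels of HSF2BP rest on 28 to 41 counts per library. HSF1, the factor that drives the inducible genes, had 67.8 and 72.4 CPM in wild-type libraries 1 and 2 and 67.1, 75.7 and 78.5 CPM in variant libraries 1 to 3. Its log2 fold change was 0.07 (SE 0.16, 95% confidence interval −0.28 to 0.43). HSF2, a related factor, had a log2 fold change of −0.14 (SE 0.17). Of the 5 genes of this list, HSF4 had the highest log2 fold change, 0.33 (SE 0.27), and HSBP1, which encodes a small protein that binds HSF1, had the lowest, −0.27 (SE 0.15). All 5 had an adjusted p of 0.699 or more in edgeR's test.

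Of 19 other described HSF1 targets, 15 had a log2 fold change below 0, as did 8081 of all 16310 tested genes. Their median was −0.12, against 0.00 for all tested genes, and none of the 19 had an adjusted p under 0.05. HSPE1, the mitochondrial co-chaperonin HSP10, had the lowest value, −0.77 (SE 0.27, adjusted p 0.616 in edgeR's test). It had 114 and 56.6 CPM in wild type and 47.5, 59.5 and 42.5 CPM in the variant, so wild type 1 alone stood high. HSPE1 shares part of its locus with HSPD1, and whether the counting used the strand is not given. UBB, a polyubiquitin gene, had the highest value, 0.40 (SE 0.17, adjusted p 0.637 in edgeR's test). The list median was −0.23 without variant 3 and −0.08 without wild type 2. HSPB8, a small heat shock protein that acts with BAG3 and the sole member of its list in the table, ran from 1.21 CPM in variant 1 to 39.9 CPM in variant 3, with 4.84 and 25.3 CPM in wild type and 11.5 CPM in variant 2. Its libraries thus spread within each group, in an order like that of HSPB1, in which wild type 1 and variant 1 were also the low libraries.

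The HSP70 relatives, J-domain proteins and HSP70 co-chaperones had a median log2 fold change of −0.04 over 21 genes, with 7 above and 14 below 0. The median was −0.10 without variant 3 and 0.02 without variant 2. DNAJB5 was highest at 0.59 (SE 0.24, adjusted p 0.633 in edgeR's test) and HSPA1L lowest. DNAJB5 is on chromosome 9, where the median was 0.36. HSP90 co-chaperones had a median of −0.04 over 13 genes, which was 0.04 without variant 1 and −0.11 without variant 3. CHORDC1, a zinc-binding HSP90 partner, was lowest at −0.52 (SE 0.18, adjusted p 0.616), and TTC4 was highest at 0.24 (SE 0.35, adjusted p 0.881), both in edgeR's test.

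The chaperonin TRiC with prefoldin, which folds actin and tubulin, had a median of −0.16 over 14 genes, with 11 below 0. The prefoldin subunit PFDN4 was lowest at −0.57 (SE 0.31, adjusted p 0.686 in edgeR's test), and the chaperonin subunit CCT5 was highest at 0.12 (SE 0.17, adjusted p 0.884). Relatives of HSP70, HSP90 and chaperonins in the endoplasmic reticulum and mitochondria had a median of −0.16 over 7 genes, from HSPE1 to HSPA5 (BiP), at 0.18 (SE 0.19, adjusted p 0.830 in edgeR's test). No listed gene outside the members came near the −2.35 of HSPA1A, and the lowest was −0.77.

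**Figure D5:**
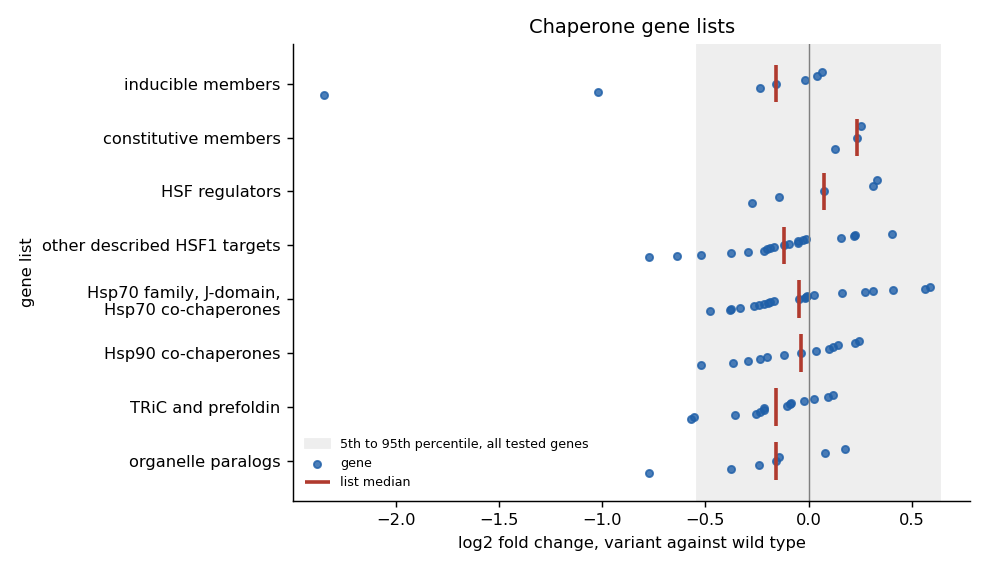
Log2 fold change, variant over wild type, for each gene of the lists apart from the small heat shock proteins (points), with list medians (red) and the 5th to 95th percentile of all tested genes (grey band, −0.54 to 0.64). HSPA1A and HSPA1B lie outside the band with HSPE1, CACYBP and 2 prefoldin genes on the low side, and list medians lie between −0.16 and 0.24.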

How the data were processed

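Per the values of the deposited file, the authors' table holds raw read counts per Ensembl gene, as whole numbers, for 5 libraries; columns were matched to libraries by library name. The submitters' processing notes name HISAT2, SAMtools, HTSeq and hg38; versions, settings, strand use and annotation are not given in the sources used here. The lowest count was 3, so silent genes are not in the table. Gene symbols came from the gene name table for 16627 of 16677 identifiers and from GENCODE release 29 for 46.

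Counts were filtered with filterByExpr (16310 genes kept), scaled by TMM and fitted in edgeR 4.0.16 (R 4.3.3), whose quasi-likelihood test was used (robust, group as the only term, Benjamini-Hochberg adjustment over all tested genes, threshold 0.05). Log2 deviations used a prior count of 2. With 2 against 3 libraries an exact permutation test cannot go below a two-sided p of 0.2, so none was run. Identity was taken from global alignments (Biopython 1.88), and promoter sequences from RefSeq (GRCh38.p14), where all 10 members matched. The fits were tested on simulated data.

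The members and lists were chosen with earlier results of these data known. The members, HSF1 and HSF2, the highest and lowest gene of each list and the 5 closest profiles are named by rule; other genes were named after their values were seen. Alternatives were scaling by RLE or the upper quartile, dropping the filter, at least 10 counts in every library, DESeq2 1.42.0, limma-voom 3.58.1, the replicate block, a correction for GC content and length, leaving out each library, and summing HSPA1A with HSPA1B.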

Additional observations from a re-analysis of the deposited data

How the results depend on the processing

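The difference in HSPA1A kept its direction in all 14 alternatives, with a log2 fold change from −3.11 (without variant 3) to −1.58 (HSPA1A and HSPA1B summed); leaving out libraries gave −3.1075 to −1.8264, and the correction for GC content and length −2.46. HSPA1B was below 0 in all 13 alternatives that gave it a value. For both genes every variant library lay below both wild-type libraries, so leaving out a library could not reverse the direction. HSPA8, HSP90AB1 and DNAJA1 stayed above 0 and HSPH1 and BAG3 below 0 in all 14, while DNAJB1, HSP90AA1 and HSPB1 changed sign in some. DESeq2 gave 32 genes with an adjusted p under 0.05 where edgeR gave 0, and the cause was not tested; leaving out libraries gave 0 to 4 genes in edgeR's test. The 4 genes, without variant 3, include HSPA1A (adjusted p 0.0118 in edgeR's test). HSPA1A was selected on its adjusted p in a fit that left out variant 3, so this value is no test. Over the other alternatives with more than a single library per group, its adjusted p was above 0.05. It ran from 0.0674 (edgeR's test with the replicate block) to 0.947 (edgeR's test without variant 2).

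Leaving out libraries moved the median of the inducible genes from −0.3025 to −0.0499 and of the constitutive genes from 0.1219 to 0.3112. It moved the medians of the other lists from −0.232 to −0.0755 (HSF1 targets), −0.1001 to 0.0236 (HSP70 relatives and co-chaperones), −0.1093 to 0.0379 (HSP90 co-chaperones), −0.2175 to −0.1285 (TRiC and prefoldin), −0.1871 to −0.1203 (organelle chaperones) and 0.0257 to 0.1368 (heat shock factors). The HSPA1A share of the joint counts differed by −27.02 to −20.52 percentage points, and joint counts per HSPA8 count by −0.999 to −0.535.

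The replicate numbers are shared by 2 pairs of libraries, whose deviations from the group means correlated at 0.12 and −0.11 over genes. The largest correlation between a wild-type and a variant library was 0.22, for wild type 2 with variant 3, which do not share a number. The labels tie the numbers to no shared culture or day, so the libraries share only a number. With the replicate block 0 genes had an adjusted p under 0.05, and HSPA1A had a log2 fold change of −3.04. Variant 3 shares its number with no wild-type library, so the block fit takes the group difference from the other libraries only. It is thus close to the fit without variant 3, which gave −3.11, and is not independent of it. The counts behind HSPA1A were 1076 or more in every library, and which of depth, library number and spread limits its precision was not tested.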
